A study of Mus musculus with 2 samples.

Results

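Expression of the 9 genes Ihh, Ptch1, Smo, Gli1, Gli2, Gli3, Hhip, Pth1r and Pthlh, which encode Hedgehog and parathyroid hormone-related signalling components, was examined in 2 single-cell RNA sequencing (scRNA-seq) libraries of mouse long bone. The genes were chosen by name, and all 9 had unique molecular identifiers (UMIs, each marking 1 captured RNA molecule) in both libraries among 28380 listed features. Cells of femur and tibia came from C57BL/6 mice at postnatal day 30, with the epiphysis removed and haematopoietic cells depleted with CD45 and CD117 beads. Control mice had the genotype Dach1OE +/f, a Dach1 transgene without Cre, and Dach1OE mice had the genotype Apj CreERT2 - Dach1OE +/f, in which a Cre under the Aplnr (Apj) promoter, active in capillary endothelium, switches the transgene on. Both groups received tamoxifen. Each library pooled 2 mice, male and female per the label, so that no comparison between the libraries has biological replicates and no test across mice was possible. All intervals given are exact 95% intervals for counting error only.

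Indian hedgehog, the product of Ihh, is secreted by chondrocytes that leave the proliferative zone of the growth plate. It binds the receptor Patched (Ptch1), which otherwise holds back the transducer Smoothened (Smo), and the signal ends at the transcription factors Gli1, Gli2 and Gli3. Ptch1, Gli1 and Hhip, whose product binds and retains Hedgehog ligands, are textbook targets of the pathway as well as its components. Parathyroid hormone-related protein, the product of Pthlh, is made by chondrocytes near the top of the growth plate and acts through the receptor Pth1r to delay hypertrophy, and Indian hedgehog stimulates its production, which closes a feedback loop. Pth1r is also the receptor through which parathyroid hormone acts on osteoblasts.

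The genes took opposite courses through the growth plate, with Hhip and Ptch1 high in early and Ihh and Pth1r high in late chondrocytes, and the promoter windows of these 4 genes are therefore shown. Each window runs from 250 bases before to 50 bases after a RefSeq transcript start in build GRCm38.p6 and is written 5′ to 3′ on the strand of the gene. The Ptch1 start lies inside the annotated gene, and of 3 Pth1r windows the most 5′ is given.
Hhip, chr8:80057959-80058258, minus strand: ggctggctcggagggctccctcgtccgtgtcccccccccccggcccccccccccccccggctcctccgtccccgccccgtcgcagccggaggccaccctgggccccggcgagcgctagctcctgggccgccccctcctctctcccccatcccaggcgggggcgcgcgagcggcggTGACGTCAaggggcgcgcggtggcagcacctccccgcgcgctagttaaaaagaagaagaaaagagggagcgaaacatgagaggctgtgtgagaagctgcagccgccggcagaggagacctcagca
Ptch1, chr13:63565686-63565985, minus strand: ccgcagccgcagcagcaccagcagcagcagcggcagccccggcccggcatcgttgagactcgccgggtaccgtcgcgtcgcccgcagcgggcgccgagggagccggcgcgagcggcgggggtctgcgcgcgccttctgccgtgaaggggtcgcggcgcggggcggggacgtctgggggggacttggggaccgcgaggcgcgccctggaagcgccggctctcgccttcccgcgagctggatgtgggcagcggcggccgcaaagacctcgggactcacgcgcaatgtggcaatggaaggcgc
Ihh, chr1:74951623-74951922, minus strand: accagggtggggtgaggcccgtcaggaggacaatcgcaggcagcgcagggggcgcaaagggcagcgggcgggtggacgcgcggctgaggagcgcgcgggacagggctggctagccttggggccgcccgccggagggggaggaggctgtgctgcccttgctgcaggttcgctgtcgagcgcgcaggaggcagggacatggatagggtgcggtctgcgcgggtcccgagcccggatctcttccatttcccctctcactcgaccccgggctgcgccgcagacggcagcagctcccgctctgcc
Pth1r, chr9:110747096-110747395, minus strand: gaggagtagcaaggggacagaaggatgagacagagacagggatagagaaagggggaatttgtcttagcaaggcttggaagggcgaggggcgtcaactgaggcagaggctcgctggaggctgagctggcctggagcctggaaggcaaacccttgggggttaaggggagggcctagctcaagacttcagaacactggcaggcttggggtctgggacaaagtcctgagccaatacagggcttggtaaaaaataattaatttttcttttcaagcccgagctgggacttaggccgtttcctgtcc
Capital letters mark the cAMP response element TGACGTCA, the palindromic motif to which factors downstream of cAMP, the second messenger of Pth1r, bind. It began 75 bases before the Hhip start and was present in 1.79% of 32851 promoter windows in the reference. The GLI-binding motif GACCACCCA, searched on both strands, was present in 0.253% of all windows and in none of the 10 windows found for 8 of the 9 genes. A match is a description of letters and not a binding site, and a missing match says nothing about regulation from outside the window.

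Ihh lies at chromosome 1, 74945315 to 74951672, Ptch1 at chromosome 13, 63508328 to 63573598, and Hhip at chromosome 8, 79965851 to 80058006, all on the minus strand of GRCm38. Pth1r lies at chromosome 9, 110722085 to 110747145, also on the minus strand, where its 5′ part overlaps Myl3 on the opposite strand. Gli1 (chromosome 10, 127329882 to 127341974, minus strand) overlaps Arhgap9 and the antisense gene Gm47200 on the opposite strand, and whether counting used the strand is not given in the sources used here. Gli2 (chromosome 1, 118834132 to 119053619, minus strand) and Gli3 (chromosome 13, 15463235 to 15730026, plus strand) span 219 and 267 kb, of which 3.13% and 3.59% are exonic, and intronic reads were counted. Smo lies at chromosome 6, 29735503 to 29761365 on the plus strand, and Pthlh lies on the same chromosome at 147252101 to 147264183 on the minus strand.

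After filtering, 26466 Control and 29317 Dach1OE cells remained, with medians of 3793.5 and 4055 UMIs per cell. Cells were assigned to classes by gates on marker genes, none of which was one of the 9 genes. Chondrocytes numbered 3854 in Control and 5301 in Dach1OE. They were divided into cells of the upper growth plate (Ucma, Sfrp5, Gdf10, Cytl1), cycling, prehypertrophic (Panx3, Cd200, Mef2c, Fgfr3, Runx3), hypertrophic (Col10a1, Mmp13 and others) and unstaged cells. These stages are ranges of a continuous score, with 32.2% of upper, 43.7% of prehypertrophic and 19.8% of hypertrophic cells lying within 10% above their gate. Bone stromal cells comprised osteoblasts, osteocytes, metaphyseal and diaphyseal mesenchymal stromal cells (mpMSCs and dpMSCs) and septoclast-gated cells, whose leading genes over the other classes were Mmp9, Mmp13, Sstr2 and Fabp5, with Mmp9 and Fabp5 among the gate's own markers. The endothelial score had a median of 0 in all chondrocyte and bone stromal classes. The chondrocyte score had a median above 0 in every other class, from 0.364 in haematopoietic cells to 0.784 in osteoblasts. Its gate was 4.0. The part of chondrocyte RNA in the levels of the other classes was not tested. Levels are given as UMIs per 1000000 UMIs of a class (CPM). Dach1 in endothelial cells was at 4.96 CPM (4.204 to 5.80) in the Control library and at 201 CPM (196 to 206) in the Dach1OE library, as labelled. The transgene and the endogenous gene cannot be told apart in these counts.

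Ihh was highest in hypertrophic chondrocytes. Its level there was 1025 CPM (interval 999.8 to 1050) in Control and 1024 CPM (1003 to 1045) in Dach1OE. Prehypertrophic cells had 715 and 667 CPM, unstaged cells 256 and 205 CPM, and cells of the upper growth plate 59.1 and 35.3 CPM in the same order of libraries. Each of these steps was larger than the difference between the libraries, whereas cycling cells (67.5 and 57.7 CPM) overlapped the upper cells. Outside cartilage, osteoblasts had 2.19 and 2.73 CPM, which did not exceed the 3.38 and 5.01 CPM of endothelial cells, a class that should lack the transcript. In cells thinned to 1000 UMIs, Ihh was detected in 51.8% of Control and 55.5% of Dach1OE hypertrophic cells (unthinned 88.1% and 90.01%), against 0.356% and 0.487% of endothelial cells.

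**Figure D1:**
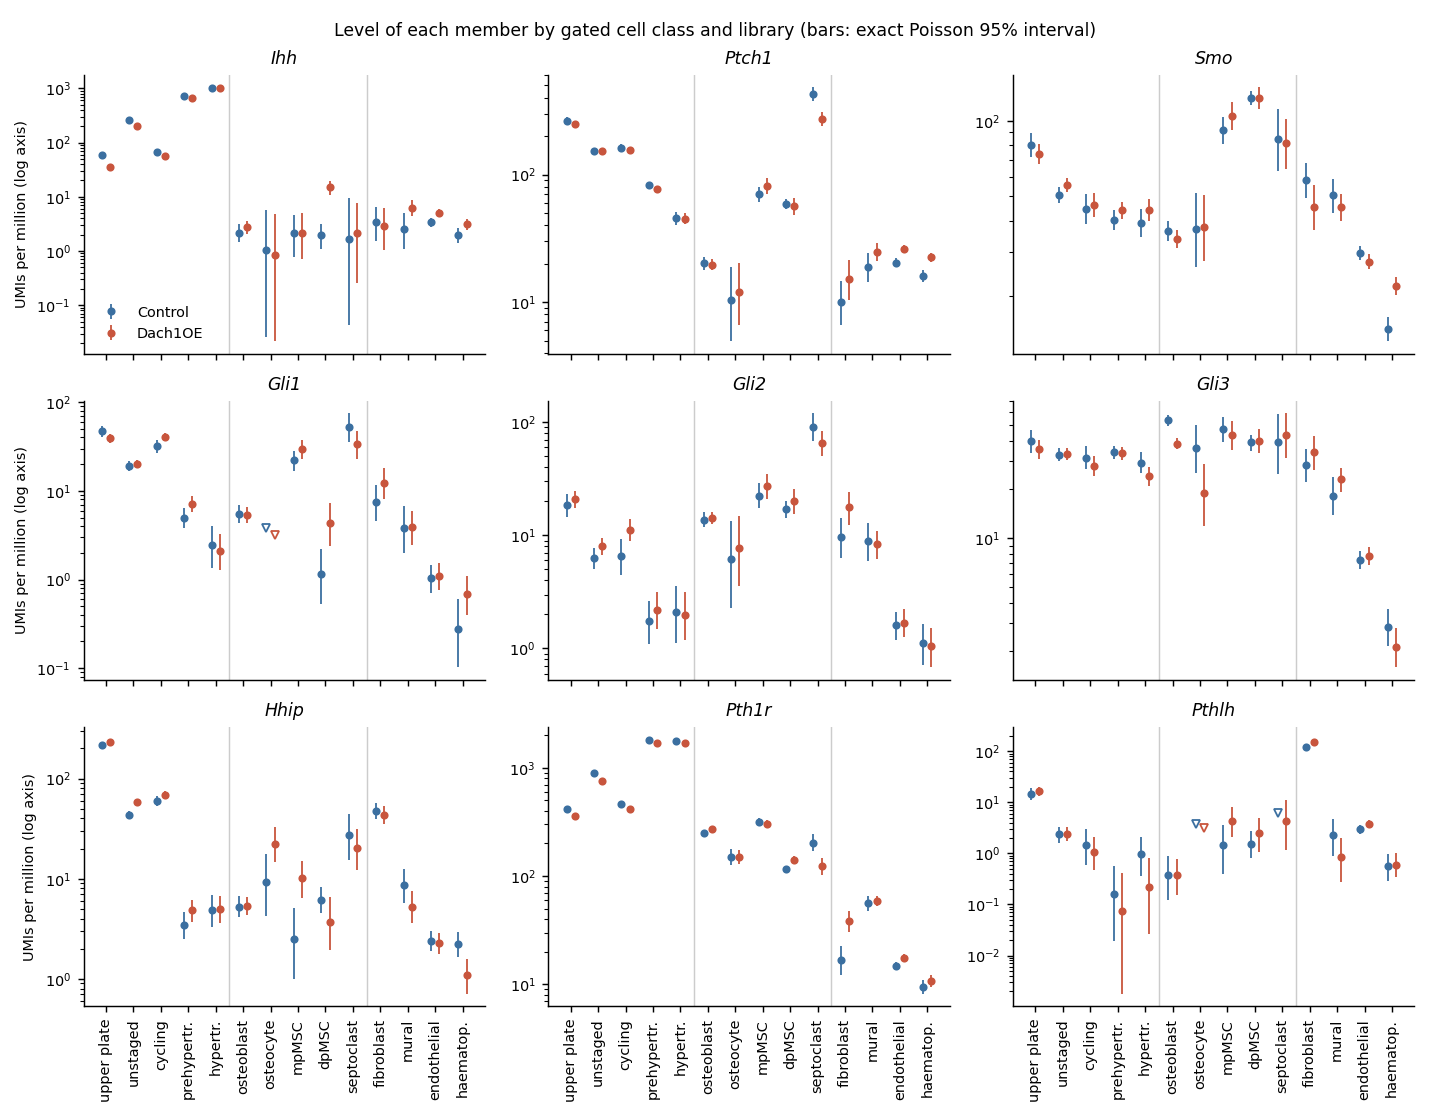
Level of each of the 9 genes (CPM, log axis, a separate scale per panel) in 14 gated classes, with Control in blue and Dach1OE in red. Points are library values, bars are exact Poisson 95% intervals, open triangles mark the upper bound where a class had no UMI, and grey lines separate chondrocyte stages, bone stromal classes and other cells. Ihh lies at 59.1 and 35.3 CPM in upper and at 1025 and 1024 CPM in hypertrophic cells, and Hhip runs the other way.

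The receptor Pth1r followed Ihh through the stages but was also present in stromal cells. Control and Dach1OE had 1783 and 1685 CPM in hypertrophic cells and 1788 and 1679 CPM in prehypertrophic cells, so that these neighbouring stages overlapped. The level was lower in unstaged cells (902 and 754 CPM) and in upper cells (412 and 361 CPM). In bone stroma, mpMSCs had 319 and 305 CPM, osteoblasts 251 and 274 CPM, osteocytes 150 and 151 CPM, and dpMSCs 117 and 141 CPM. All of these exceeded endothelial cells, with 14.8 and 17.4 CPM.

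Ptch1 was highest in septoclast-gated cells, followed by the upper growth plate. Septoclast-gated cells had 427 CPM (376 to 484) in Control and 273 CPM (241 to 309) in Dach1OE, from 134 and 212 cells. Upper chondrocytes had 264 CPM (249 to 280) and 250 CPM (238 to 262), so in Dach1OE the intervals of both classes overlapped. Unstaged cells had 153 and 154 CPM, prehypertrophic cells 82.8 and 76.4 CPM and hypertrophic cells 45.5 and 44.9 CPM. The receptor was thus lowest in the stages in which its ligand was highest, and no stage overlapped its neighbour among these 4. Osteoblasts had 20.2 and 19.7 CPM, close to the 20.4 and 26.3 CPM of endothelial cells, whereas mpMSCs had 69.9 and 81.9 CPM and dpMSCs 59.1 and 56.4 CPM.

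Smo, the transducer, was highest in 3 of the bone stromal classes and differed less between chondrocyte stages than Ptch1. dpMSCs had 123 and 124 CPM, mpMSCs 92.1 and 104.7 CPM, and septoclast-gated cells 84.8 and 81.5 CPM. Osteoblasts (36.3 and 33.8 CPM) and osteocytes (37.2 and 37.9 CPM) were lower. Among chondrocytes, upper cells had 80.1 and 74.0 CPM and hypertrophic cells 39.2 and 44.0 CPM. Smo in dpMSCs differed between the libraries by 0.01 on the log2 scale (-0.17 to 0.18).

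The Gli genes separated into stage-dependent and broad patterns. Gli1, an activator and a target of the pathway, had 47.1 and 39.3 CPM in upper, 19.0 and 20.3 CPM in unstaged, 4.94 and 7.155 CPM in prehypertrophic and 2.42 and 2.10 CPM in hypertrophic chondrocytes. Septoclast-gated cells (52.6 and 33.9 CPM) overlapped the upper cells, mpMSCs had 22.1 and 29.4 CPM, and endothelial cells had 1.03 and 1.09 CPM. Gli2, the main activator, was highest in septoclast-gated cells, with 91.6 and 65.6 CPM, and lay between 17.0 and 27.2 CPM in mpMSCs, upper chondrocytes and dpMSCs. Gli3, which acts largely as a repressor, stayed between 24.1 and 39.7 CPM over all 5 chondrocyte stages and reached 53.4 and 38.3 CPM in osteoblasts, where the libraries spanned the values of mpMSCs, septoclast-gated cells and dpMSCs.

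Hhip was highest in the upper growth plate, with 215 CPM (201 to 230) in Control and 232 CPM (220 to 244) in Dach1OE upper cells. It was at 43.4 and 58.3 CPM in unstaged, 3.43 and 4.82 CPM in prehypertrophic and 4.84 and 4.98 CPM in hypertrophic cells. Fibroblasts, gated on markers of periosteum and tendon, had 47.4 and 43.5 CPM and overlapped the unstaged chondrocytes. Over both libraries together, the log2 ratio of the hypertrophic over the upper level was -5.52 for Hhip, -4.89 for Pthlh, -4.24 for Gli1 and -3.29 for Gli2, and 4.53 for Ihh and 2.18 for Pth1r.
For Gli3 this ratio was -0.50 and for Smo -0.86.

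Among the gated classes, Pthlh was highest in fibroblasts, not in chondrocytes. The leading genes of the fibroblast class included Thbs4 and Cilp, which are markers of its gate, and Prg4, which is not. Whether cells of joint tissue fall into this class was not tested. Fibroblasts had 120 CPM (107 to 134) in Control and 150 CPM (134 to 168) in Dach1OE, and 125 of 633 and 131 of 521 fibroblasts had a Pthlh UMI. Upper chondrocytes came next with 14.5 and 16.3 CPM. Endothelial cells (2.96 and 3.80 CPM), mpMSCs (1.43 and 4.38 CPM) and septoclast-gated cells (no UMI and 4.23 CPM) overlapped. Prehypertrophic and hypertrophic cells had between 0.0730 and 0.969 CPM. Thinned to 1000 UMIs, 7.92% and 10.9% of fibroblasts (unthinned 19.7% and 25.1%) and 1.603% and 1.84% of upper chondrocytes (unthinned 6.01% and 5.28%) had a Pthlh UMI, against 0.311% and 0.249% of endothelial cells. The median depths behind these shares were 3975 and 3691 UMIs in fibroblasts, 8340 and 7996 in upper chondrocytes and 2743 and 2726.5 in endothelial cells.

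The levels were also taken along a single gene. Non-cycling chondrocytes low in Col10a1 were placed in 5 bins of Panx3, a pannexin that rises towards hypertrophy, an axis that was chosen after the data had been seen. Panx3 and Col10a1 are markers of the stage gates, so that this axis is not independent of the stages. From the bin without Panx3 to the bin with 1200 CPM or more, Ihh went from 3.78 to 435 CPM in Control and from 4.15 to 372 CPM in Dach1OE. Hhip went from 504 to 10.1 CPM and from 532 to 14.2 CPM, and Pthlh from 42.8 to 0.356 CPM and from 39.8 to 0.796 CPM. Gli2 started at 44.1 and 53.9 CPM and ended at 3.003 and 3.85 CPM. Ptch1 lay between 224 and 271 CPM in the lowest 4 bins of both libraries and was 122 and 118 CPM in the last, whereas Hhip was already at 190 and 225 CPM in the second bin.
Cells without Panx3 were shallower (medians of 5269 and 5290 UMIs) than those of the last bin (11636.5 and 10963.5). In cells with at least 4000 UMIs, Hhip in the bin without Panx3 was 491 and 523 CPM and Pthlh 31.5 and 36.3 CPM. Binned by Col10a1, which marks hypertrophy itself, Ihh went from 243 to 1162 CPM in Control and from 167 to 1178 CPM in Dach1OE between the lowest and highest of 5 bins.

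**Figure D2:**
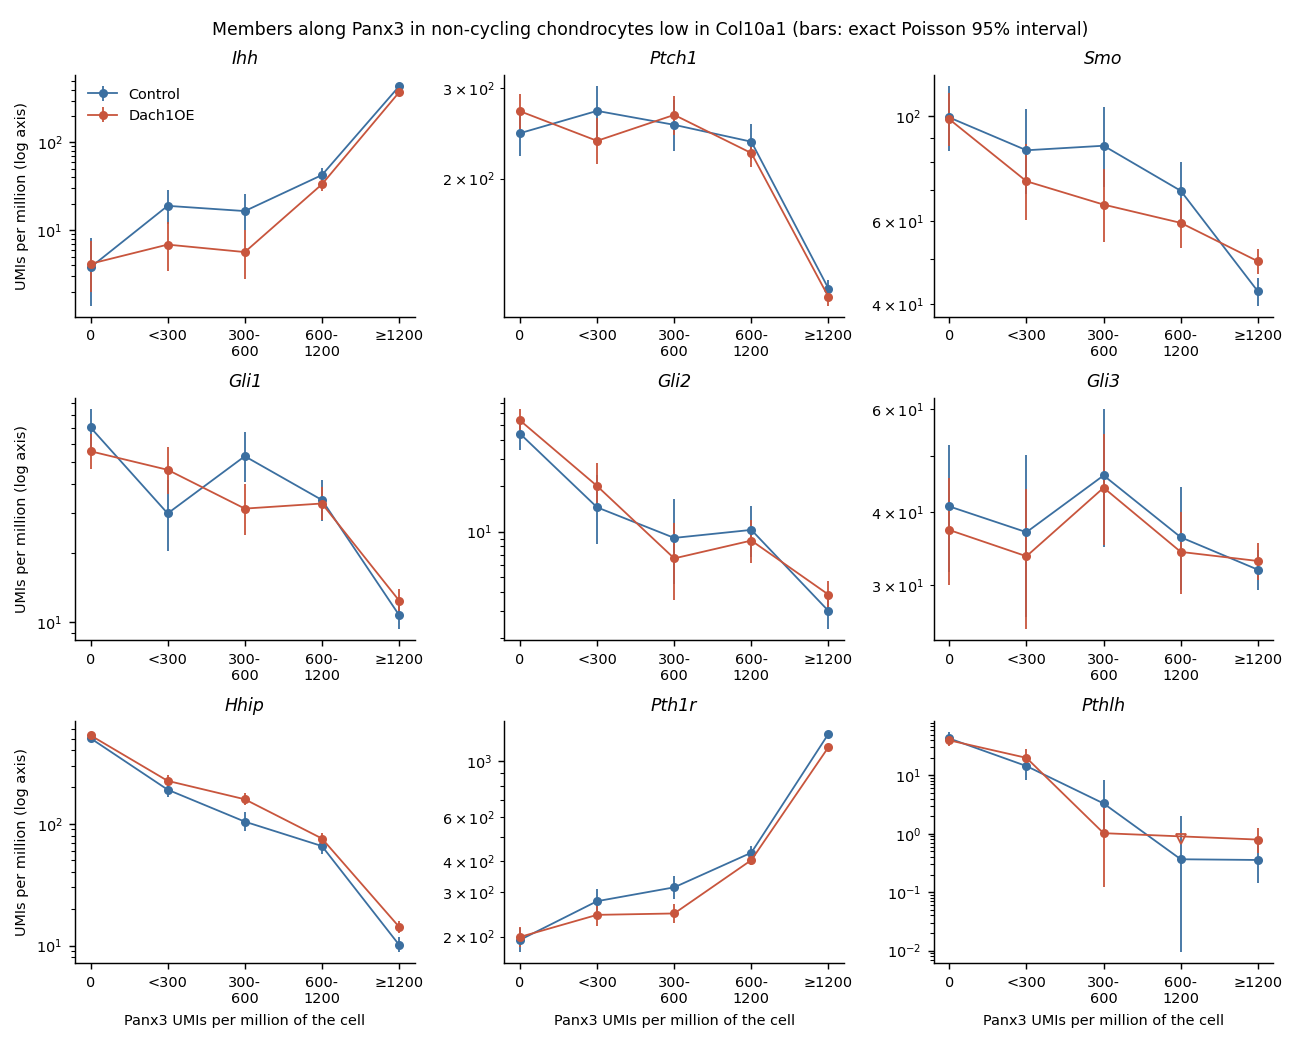
Level of each gene (CPM, log axis, a separate scale per panel) in 5 bins of the Panx3 level of non-cycling chondrocytes low in Col10a1, with Control in blue and Dach1OE in red. Bars are exact Poisson 95% intervals, and the open triangle is the upper bound for a bin without a UMI. Hhip, Pthlh and Gli2 are highest in the first bin, Ptch1 is lowest in the last, and Ihh and Pth1r are highest in the last bin of both libraries.

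Within single chondrocytes, Ihh and Pth1r were found together, whereas Ihh and the targets Hhip and Gli1 were seldom found in the same cell. To compare cells at 1 depth, the 3384 Control and 4694 Dach1OE chondrocytes with at least 5000 UMIs were thinned to 5000. Cells of all stages were pooled, so these shares also carry the stage profiles given above. Among cells with an Ihh UMI, 98.5% in each library had a Pth1r UMI, compared with 81.0% (79.1 to 82.8) and 78.3% (76.7 to 79.9) of cells without Ihh. Hhip was detected in 2.07% and 2.59% of cells with Ihh, compared with 23.5% and 25.7% of cells without. For Gli1 the shares were 2.62% and 2.92% with Ihh and 13.4% and 14.3% without. Ptch1 was detected in 28.9% and 25.04% of cells with Ihh and in 55.7% and 53.5% of cells without.

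Over all stages pooled, the targets went together. Ptch1 was detected in 62.0% (55.9 to 67.7) and 54.8% (49.9 to 59.6) of cells with a Gli1 UMI, compared with 41.0% and 39.2% of cells without. For Hhip these shares were 30.1% and 33.8% with Gli1 and 11.6% and 13.4% without. Hhip was also detected in 18 of 27 Control and 23 of 33 Dach1OE cells with Pthlh (66.7% and 69.7%), compared with 12.7% and 14.9% of cells without. The intervals of cells with and without the first gene did not overlap for any of these pairs in either library. Stage was not held constant, and whether these pairs go together or apart within a stage was not tested. Cells of 1 library share their mice and are not replicates, and these shares describe the 2 libraries.

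**Figure D3:**
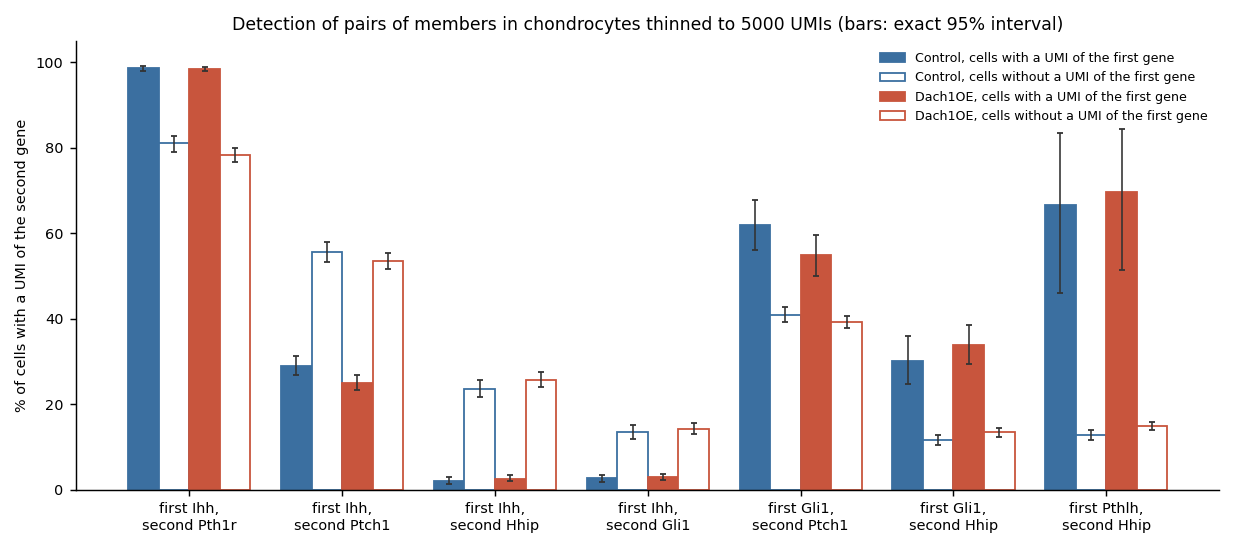
Share of chondrocytes, all stages pooled, with a UMI of a second gene among cells with (filled) and without (open) a UMI of a first gene, all thinned to 5000 UMIs, with Control in blue and Dach1OE in red. Error bars are exact Clopper-Pearson 95% intervals. Ihh cells hold Pth1r in 98.5% of cases and Hhip in 2.07% and 2.59%.

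Chondrocytes with Pthlh formed a small set that was high in Hhip. Of the upper cells, 30 of 499 in Control and 43 of 815 in Dach1OE had a Pthlh UMI. These cells had 538 CPM (433 to 662) and 994 CPM (869 to 1131) of Hhip, compared with 201 and 204 CPM in upper cells without Pthlh. Gli2 was 77.8 and 139 CPM with Pthlh and 15.9 and 16.6 CPM without. Pth1r was 156 and 109 CPM with Pthlh and 423 and 370 CPM without, so that the ligand and its receptor were high in different upper cells. Ihh had no UMI in the Control cells with Pthlh and 1 UMI in the Dach1OE cells, or 4.36 CPM, against 61.7 and 36.4 CPM in the others. The cells with Pthlh were shallower, with medians of 5222.5 and 5200 UMIs against 8512 and 8149.5. In fibroblasts, Hhip was 26.5 and 68.5 CPM with Pthlh and 53.5 and 33.1 CPM without, in opposite order in the libraries.

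Over the 14 classes, other genes with the pattern of each member were ranked by Pearson correlation of log2(CPM + 1) among 15163 genes. Classes share libraries and depth, and these values are descriptions. The closest to Pth1r were Rarres1 (r = 0.957), Shisa4 and Grb14, and to Pthlh Cilp2 (r = 0.948), Mmp3 and Srcin1. Gm29157 (r = 0.848), A730056A06Rik and Cpm were closest to Hhip, and B3gnt9 (r = 0.958), Gpx8 and Gfra4 to Gli3. For Smo they were Efna2 (r = 0.953), Nol3 and Mdk, for Gli2 Scarf2 (r = 0.922), Srpx2 and Scara3, for Gli1 Lrrc42 (r = 0.915), Trim46 and Gpr37l1, and for Ptch1 Mrap (r = 0.915), Gpr37l1 and Slc25a13. For Ihh they were Gm45397 (r = 0.991), Gm12349 and Fxyd3, none of which stayed among the 3 closest with log2(CPM + 10), when they were Foxa2 (r = 0.994), Nim1k and Mtus2. With that pseudocount 1 of the 3 genes named stayed for Gli1 and for Gli2, 2 stayed for Ptch1 and for Smo, and all 3 stayed for Gli3, Hhip, Pth1r and Pthlh.

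To ask whether the pathway differs when Dach1 is switched on in endothelium, the libraries were compared within each class, counting a gene as past the fold if it had at least 20 UMIs over both libraries and differed by 1.5-fold or more. In chondrocytes, none of the 9 genes was past the fold, where 2.41% of 17069 genes were higher and 8.92% lower in Dach1OE. Ptch1 was 128 CPM in each library (log2 ratio 0.00, -0.05 to 0.06). The ligand Ihh had 469 and 417 CPM (log2 ratio -0.17, -0.20 to -0.14), and Pth1r was 1203 and 1048 CPM (-0.20, -0.22 to -0.18). Hhip was 44.2 and 58.4 CPM (0.40, 0.32 to 0.48), Gli2 5.53 and 7.53 CPM (0.45, 0.21 to 0.68), Gli1 16.5 and 19.0 CPM (0.20, 0.06 to 0.35) and Smo 48.0 and 51.7 CPM (0.11, 0.02 to 0.19). For Gli3 and Pthlh the interval of the log2 ratio over all chondrocytes included 0. Pthlh by sex of the cell is given below.

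The make-up of the cartilage also differed between the libraries. Upper cells were 12.9% of Control and 15.4% of Dach1OE chondrocytes, and prehypertrophic cells 24.8% and 20.4%. With all 5 stages weighted equally, the log2 ratio was 0.18 for Hhip, -0.09 for Ihh and -0.13 for Pth1r. Within stages, Ihh in hypertrophic cells differed by 0.00 on the log2 scale, whereas in upper cells it was 59.1 and 35.3 CPM, a log2 ratio of -0.74 (-1.01 to -0.48) that was past the fold. That difference rests on 61 of 499 Control and 75 of 815 Dach1OE upper cells with an Ihh UMI, and 1 Control cell held 31 of 240 UMIs. The ratio in upper cells was -1.498 under a stricter gate and -0.37 in cells with Xist and no Y-linked UMI. Ihh was the only gene past the fold of 9 in upper cells, where 3.59% of 11776 genes were higher and 6.51% lower. Sexed values did not overlap for 3 of 9 genes (Gli1 and Pth1r lower and Pthlh higher in Dach1OE), against 35.6% of all genes. In the unstaged cells Ihh had a ratio of -0.32 (-0.39 to -0.25).
In cycling cells 1 of 8 genes was past the fold, where 4.29% of 12000 genes were higher and 6.56% lower. This was Gli2, with 6.58 and 11.2 CPM (0.77, 0.16 to 1.42), but the Xist cells had 9.11 and 9.999 CPM (log2 ratio 0.13), and the Y cells of Control held 2 UMIs. Sexed values did not overlap for 4 of 8 genes in cycling cells, against 36.2% of all genes.

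**Figure D4:**
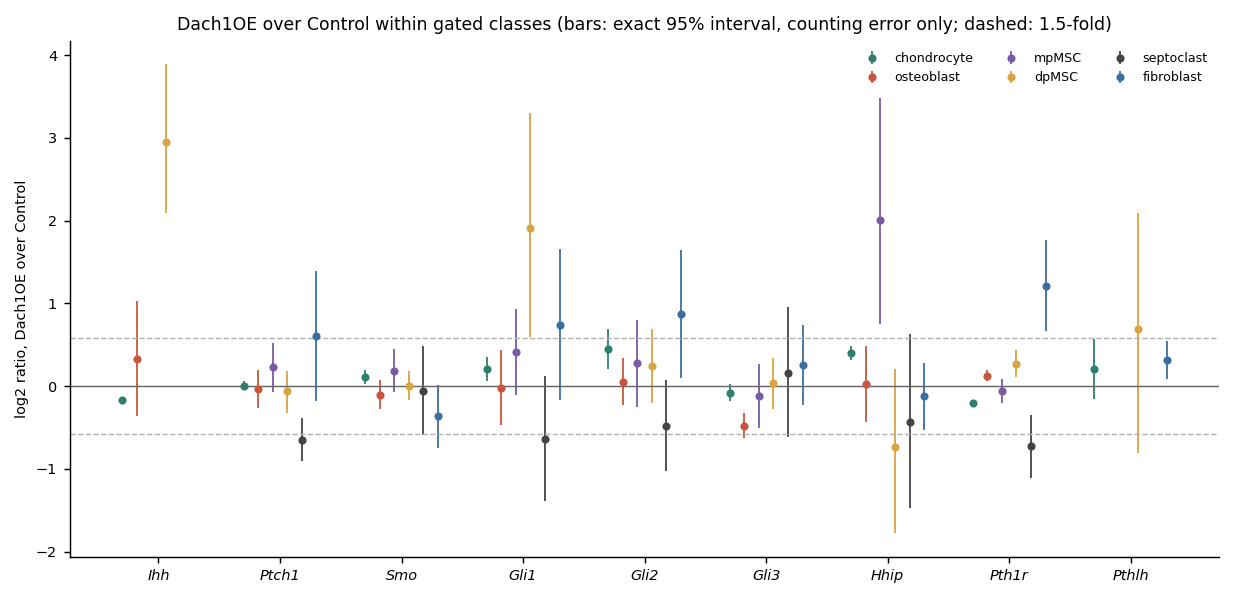
Log2 ratio of the Dach1OE over the Control level of each gene in 6 gated classes, shown where a gene had at least 20 UMIs over both libraries and a UMI in each. Bars are exact 95% intervals for counting error only and dashed lines mark 1.5-fold. The chondrocyte values lie between -0.20 and 0.45, and the widest bars belong to genes with few UMIs such as Gli1 in dpMSCs.

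Each library pooled mice of different sex, so cells with Xist and no Y-linked UMI and cells with a Y-linked UMI and no Xist were also compared, as 4 values that stand for different mice if each library held 1 mouse of each sex. Such chondrocytes numbered 1885 and 1095 in Control and 1887 and 1988 in Dach1OE, so the ratios of pooled cells also carry a different mix. In chondrocytes of all stages, Pth1r was 1195 and 1256 CPM in the Xist and Y cells of Control. It was 1023 and 1141 CPM in those of Dach1OE, and the libraries did not overlap. Within stages, the log2 ratio of Pth1r in Y cells was -0.13 in unstaged cells and between -0.03 and 0.02 in the others. In Xist cells it lay between -0.35 and -0.15. The sexed values of Pth1r overlapped in cycling and prehypertrophic cells. Ihh was 465 and 499.9 CPM in Control and 390 and 473 CPM in Dach1OE, which overlapped. Hhip was 51.1 and 31.5 CPM against 55.4 and 51.3 CPM, and Ptch1 148 and 102 CPM against 139 and 116 CPM. The values of Ptch1 overlapped. The values did not overlap for 5 of the 9 genes (Smo, Gli1, Gli2 and Hhip higher and Pth1r lower in Dach1OE), where 39.5% of all 17069 genes did not overlap. The highest Control and lowest Dach1OE values were 49.7 and 49.9 CPM for Smo and 17.8 and 18.1 CPM for Gli1. For Hhip they were 51.1 and 51.3 CPM. In upper cells Gli1 was lower in Dach1OE (42.6 and 51.5 against 41.6 and 40.6 CPM). Gli1 was higher in cycling and prehypertrophic cells, Hhip was higher in cycling cells, and both overlapped in the other stages. For Gli2 the Xist cells had 6.33 and 6.48 CPM (log2 ratio 0.03) and the Y cells 3.23 and 7.05 CPM (log2 ratio 1.13, 0.63 to 1.64). For Ihh in the upper cells the values were 33.7 and 92.6 CPM in Control and 26.0 and 48.9 CPM in Dach1OE and overlapped. Pthlh in upper cells was 7.48 and 4.77 CPM in Control and 18.8 and 12.7 CPM in Dach1OE, without overlap. These values rest on 16 and 5 UMIs in Control and 47 and 32 in Dach1OE. Over all upper cells, which include unsexed cells, Pthlh was 14.5 and 16.3 CPM, from 59 and 107 UMIs. In chondrocytes the Pthlh ratio was 0.58 (0.02 to 1.14) in Xist cells and 1.20 (0.30 to 2.21) in Y cells, with overlapping values.

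**Figure D5:**
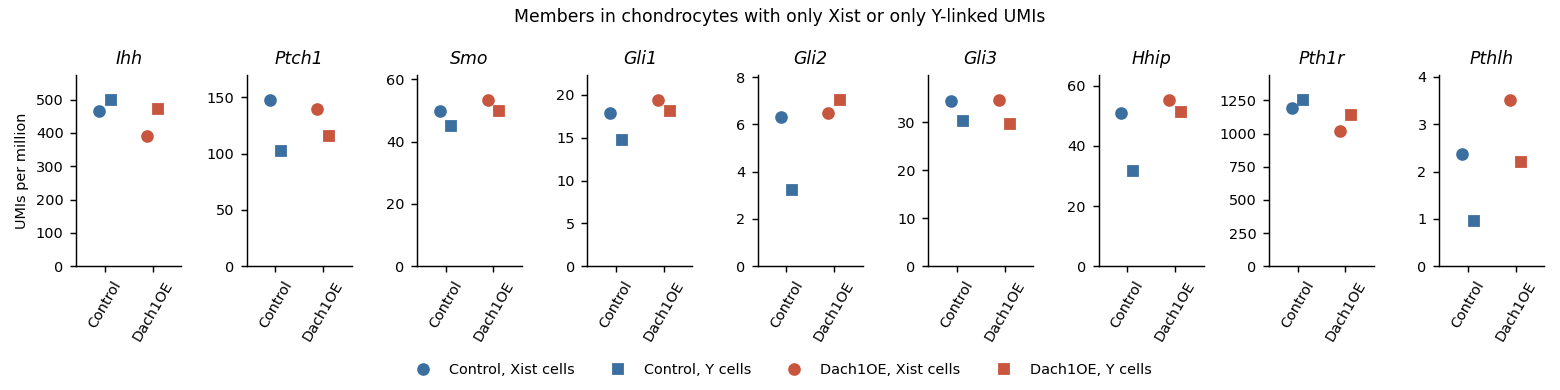
Level of each gene (CPM, linear axis from 0) in chondrocytes of all stages with only Xist (circles) or only Y-linked (squares) UMIs. Control is in blue and Dach1OE in red. Pth1r is lower in both Dach1OE points (1023 and 1141) than in both Control points (1195 and 1256), whereas Ihh and Ptch1 overlap.

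In osteoblasts, none of the 8 genes with enough UMIs was past the fold (2.8% of 14229 genes were higher and 7.78% lower). Gli3 had 53.4 and 38.3 CPM (log2 ratio -0.48, -0.63 to -0.32), with 56.6 and 47.5 CPM in the Xist and Y cells of Control and 39.0 and 40.1 CPM in those of Dach1OE. Pth1r was 251 and 274 CPM (0.13, 0.06 to 0.19), with overlapping values in sexed cells. The sexed values did not overlap for 2 of 8 genes, against 38.6% of all genes.

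In mpMSCs, 1 of 7 genes was past the fold (5.73% of 11233 genes were higher and 5.88% lower). This was Hhip, with 7 UMIs in Control and 23 in Dach1OE, of which 7 came from 1 cell (2.498 and 10.1 CPM, log2 ratio 2.01, 0.75 to 3.48). The pathway components Ptch1, Smo, Gli1 and Gli2 had ratios of 0.23, 0.19, 0.41 and 0.27 with intervals that included 0. In the same order the ratios were 0.36, -0.12, 0.08 and 0.07 in endothelial cells. In haematopoietic cells they were 0.48, 0.57, 1.29 and -0.10, where Gli1 had 6 and 17 UMIs. A Ptch1 ratio above 0 was thus also seen outside bone stroma, and in mpMSCs its interval was -0.07 to 0.53. Among other bone stromal classes the Ptch1 ratio was -0.07 in dpMSCs, -0.04 in osteoblasts and -0.65 in septoclast-gated cells. In mpMSCs with at least 4000 UMIs the ratio was 0.94 (-0.04 to 1.97) for Gli1 and 1.21 (0.33 to 2.14) for Gli2. That cut lies above the median depth of mpMSCs (3080 and 3126 UMIs), so most of them were left out. A stricter gate gave 0.62 (-0.24 to 1.49) for Gli1 and 0.10 (-0.69 to 0.88) for Gli2. For 5 of 7 genes the sexed values did not overlap (Ptch1, Smo, Gli1, Gli3 and Hhip, all higher in Dach1OE), against 35.7% of all genes. In each sex, however, the log2 intervals of Ptch1, Smo, Gli1 and Gli3 included 0. Smo in Xist cells was 100.6 and 101.0 CPM, and Hhip in sexed Control cells rested on 1 and 2 UMIs. In the pooled cells Gli3 was lower in Dach1OE (47.1 and 43.4 CPM).

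In dpMSCs, 4 of 9 genes were past the fold (4.58% of 12536 genes were higher and 5.62% lower). Ihh, Gli1 and Pthlh were higher and Hhip was lower, and all 4 had few UMIs. Pthlh (1.54 and 2.48 CPM) lay below endothelial cells (2.96 and 3.80 CPM) and above haematopoietic cells (0.558 and 0.602 CPM) in both libraries. Hhip lay above endothelial cells (2.41 and 2.27 CPM). In Control, Ihh (1.93 CPM) was below the endothelial 3.38 CPM, and Gli1 (1.16 CPM) was close to the endothelial 1.03 CPM. Haematopoietic cells of Control had 1.95 CPM of Ihh and 0.279 CPM of Gli1. Endothelial Ihh was itself higher in Dach1OE (log2 ratio 0.57, 0.20 to 0.94). Ihh (15 and 48 UMIs) was higher by 2.95 on the log2 scale (2.09 to 3.89), but 36 of the 48 UMIs lay in 1 cell, and the ratio was 1.16 (-0.11 to 2.41) without the top cell of each library. Gli1 had 9 and 14 UMIs (1.91, 0.60 to 3.30), and Hhip 48 and 12 UMIs (6.18 and 3.72 CPM, -0.73, -1.78 to 0.20), lower in Dach1OE in both sexes. The interval of Pthlh included 0 too. In Y cells Ihh and Pthlh were each at 3 UMIs in Control and 1 in Dach1OE (1.998 and 1.38 CPM), lower in Dach1OE. Pth1r, with 909 and 455 UMIs, was 117 and 141 CPM (0.27, 0.11 to 0.43), and its sexed values did not overlap. That held for 4 of 9 genes, against 35.6% of all genes.

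Septoclast-gated cells were lower in Dach1OE in 3 of 7 genes past the fold, where 12.2% of 8241 genes were higher and 7.6% lower. Ptch1 (427 and 273 CPM) had a log2 ratio of -0.65 (-0.90 to -0.39), with 455 and 469 CPM in the Xist and Y cells of Control and 293 and 288 CPM in those of Dach1OE. Pth1r was 204 and 123 CPM (-0.73, -1.11 to -0.35), with 253 and 169 CPM in Control and 112 and 151 CPM in Dach1OE sexed cells. Gli1 had a ratio of -0.63 (-1.39 to 0.13), which turned to 0.53 in Xist cells (50.6 and 73.2 CPM). The sexed values did not overlap for 3 of 7 genes (Ptch1, Gli2 and Pth1r), against 34.3% of all genes, and rested on 54 and 21 Control and 45 and 79 Dach1OE cells. The share of cells with a Ptch1 UMI after thinning was 24.2% (17.2 to 32.5) and 22.2% (16.8 to 28.4), which overlapped.

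In fibroblasts, 4 of 8 genes were higher in Dach1OE past the fold (7.36% of 10917 genes were higher and 8.79% lower). Pth1r had 16.8 and 38.7 CPM (log2 ratio 1.20, 0.66 to 1.76), from 45 and 81 UMIs, and the Control level was close to the 14.8 and 17.4 CPM of endothelial cells. Gli2 had 9.70 and 17.7 CPM (0.86, 0.10 to 1.65), but 14.1 and 14.4 CPM in Y cells. The intervals of Ptch1 and Gli1 included 0, and each was lower in Dach1OE in 1 sex, Ptch1 with 15.8 and 8.93 CPM in Xist cells and Gli1 with 10.1 and 4.80 CPM in Y cells, from 17 UMIs or fewer per library. Pthlh was 120 and 150 CPM (0.32, 0.09 to 0.55), with 117 and 66.6 CPM in the Xist and Y cells of Control and 112 and 204 CPM in those of Dach1OE, which overlapped. The values did not overlap for 3 of 8 genes, against 38.2% of all genes.

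Other genes of the Hedgehog pathway were taken from a list of 37 names. Its other ligands were low, with 6 UMIs of Shh over all cells, and Dhh, which reached 13.8 CPM in endothelial cells and at most 1.41 CPM in the other classes. The coreceptors Gas1, Cdon and Boc were highest in fibroblasts, with 1037, 227 and 75.2 CPM over both libraries. Scube2 and Scube3 encode secreted proteins, of which Scube2 aids ligand release. Scube2 had 61.5 CPM in upper chondrocytes and 84.2 CPM in fibroblasts, and Scube3 69.4 CPM in hypertrophic cells. Scube1, also listed, was higher, with 129.7 CPM in prehypertrophic and 113.4 CPM in hypertrophic cells.

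Of the 37 genes, 2 were higher and 2 lower past the fold in Dach1OE chondrocytes of 35 tested (2.41% and 8.92% of all genes), with a median log2 ratio of -0.01 (-0.03 over all genes). Scube3 had 20.7 and 35.5 CPM (log2 ratio 0.78, 0.66 to 0.90) and Gas1 9.86 and 6.50 CPM (-0.60, -0.81 to -0.39), and neither overlapped in sexed cells. Osr1 and Foxf1 had under 50 UMIs over both libraries. In osteoblasts 2 were higher and 3 lower of 31 (2.8% and 7.78% of all genes, median -0.09, -0.05 over all genes), among them the transcription factor gene Foxc2 (6.78 and 3.33 CPM, -1.03, -1.52 to -0.54). In mpMSCs 2 of 27 were higher (5.73% of all genes, median -0.02, -0.01 over all genes), the cilium gene Kif7 (13.9 and 22.8 CPM), whose sexed values overlapped, and Disp1, whose log2 interval included 0 (-0.28 to 1.51). In dpMSCs 8 were higher and 1 lower of 30 (4.58% and 5.62% of all genes), with a median of 0.15 (-0.01 over all genes), and the most counted were Gpc3 (18.3 and 31.6 CPM, 0.79, 0.41 to 1.17), Ccnd1 (10.9 and 18.0 CPM), Boc (14.0 and 9.30 CPM) and Hhat (6.82 and 10.2 CPM). In Y cells Ccnd1 was lower in Dach1OE (19.3 and 11.03 CPM), the log2 intervals of Boc and Hhat included 0, and the sexed values of Hhat overlapped. In fibroblasts 3 were higher and 3 lower of 27 (7.36% and 8.79% of all genes, median 0.02, -0.01 over all genes), with Scube2 at 115 and 44.4 CPM (-1.38, -1.73 to -1.04), Ccnd1 at 101 and 62.6 CPM, Disp1 at 31.7 and 53.0 CPM and Tbx2 at 15.7 and 7.16 CPM. In Xist cells Tbx2 was higher in Dach1OE (9.32 and 12.8 CPM) and Disp1 had 35.4 and 35.7 CPM.

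The list for parathyroid hormone-related signalling held 39 names, of which 37 were in the tables. The shares of all genes past the fold are those given for the Hedgehog list. In chondrocytes 1 was higher and 1 lower of 37 (median -0.08, -0.03 over all genes), Sost and Ramp3, each with a log2 interval that included 0. In osteoblasts 0 were higher and 2 lower of 34 (median -0.08). These were Mmp13, a collagenase gene, with 762 and 387 CPM (-0.98, -1.02 to -0.93), and Tnfsf11, the gene of the osteoclast factor RANKL, with 3.92 and 2.29 CPM (-0.77, -1.40 to -0.16), but 3.31 and 3.18 CPM in Y cells. Mmp13 had 21549 CPM in septoclast-gated cells and 5587 CPM in mpMSCs, and the part of RNA from these cells in the osteoblast value was not tested. In mpMSCs 5 were higher of 32 (5.73% of all genes, median 0.04). Among them were Sik1 (8.92 and 16.2 CPM, log2 ratio 0.86, 0.09 to 1.66) and Hdac5 (13.2 and 20.2 CPM, -0.05 to 1.28), which encode regulators downstream of Pth1r. Bmp2 (6.78 and 10.95 CPM, -0.23 to 1.63) and Nr4a1 (6.07 and 9.64 CPM, -0.31 to 1.67) also had log2 intervals that included 0. Bmp2 had 9.88 and 9.39 CPM in Xist cells, and Nr4a1 was lower in the Y cells of Dach1OE (11.6 and 1.99 CPM). None of 33 was past the fold in dpMSCs, and the median was -0.01. In fibroblasts 5 were higher and 2 lower of 32 (median -0.05), with Rgs2 at 221 and 89.3 CPM (-1.31, -1.55 to -1.07), Mmp13 at 39.9 and 121 CPM, Nr4a1 at 77.3 and 37.7 CPM and Bmp2 at 24.6 and 50.1 CPM. The sexed values of Nr4a1 overlapped. Mmp13 went the other way in sexed fibroblasts, with 61.5 and 60.5 CPM in Control and 19.1 and 36.0 CPM in Dach1OE.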

How the data were processed

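Single-cell suspensions of non-haematopoietic bone cells were profiled on the BD Rhapsody system. Per the file headers, the deposited tables are raw counts of reads and molecules per cell and gene from the BD Rhapsody WTA Analysis Pipeline version 1.11, with GRCm38, GENCODE vM19 and intronic reads included. UMIs after the pipeline's recursive substitution error correction were used. Cells with 500 to 6000 genes and under 25% mitochondrial UMIs were kept. A class score was the mean over its markers of log2(1 + UMIs per 10000), and cells passing gates of unrelated classes (1591 Control and 1886 Dach1OE cells, which include doublets) or none were left out. No doublet caller was run. The tables held 28720 and 32028 cells, 1049 cell index numbers occurred in both, and the tables totalled 143986818 and 166999989 UMIs.

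UMIs were summed per class and library and divided by the class total (CPM). Level intervals were exact Poisson, ratio intervals came from the exact binomial split of UMIs, and shares had exact Clopper-Pearson intervals. UMIs were counted per library, each of 2 pooled mice, so no p-value was computed. Fewer molecules of a gene in a class can reflect fewer cells with it or less RNA per cell. The 9 genes, lists, markers and gates were chosen with earlier results of these data known. Named genes were the 9 members, the 4 most counted listed genes past the fold per class, and the 3 closest in pattern among genes with at least 200 UMIs. Ratio and interval code was tested on simulated data. Software was Python 3.11.15 with numpy, scipy and pandas. Gene positions came from GENCODE vM21 (GRCm38), and promoter windows from RefSeq (GRCm38.p6).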

Additional observations from a re-analysis of the deposited data

Results flagged for a closer look

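These results were taken up because the libraries differed in opposite directions in cells of different sex or in different classes. None of these differences was tested across mice, and sex and mouse cannot be told apart. In prehypertrophic cells the log2 ratio of Ihh (Dach1OE over Control) was -0.21 in Xist cells and 0.11 in Y cells, a difference of -0.32. In hypertrophic cells it was -0.25 and 0.17, a difference of -0.42. For Ptch1 in chondrocytes it was -0.089 and 0.18, a difference of -0.27.

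Pth1r was higher in Dach1OE in dpMSCs (0.27) and fibroblasts (1.20), in cells of either sex. It was lower in chondrocytes (-0.20) and septoclast-gated cells (-0.73), also in cells of either sex. For chondrocytes this holds with all stages pooled. Within stages the Y-cell ratio was -0.13 in unstaged cells and between -0.03 and 0.02 in the others. The ratio in dpMSCs exceeded that in chondrocytes by 0.47 and that in septoclast-gated cells by 0.999. The ratio in fibroblasts exceeded these by 1.40 and 1.93. In fibroblasts the Control level lay near that of endothelial cells.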

How the results depend on the processing

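The log2 ratio of each gene was recomputed in 1 class (chondrocytes for Ihh, Ptch1, Hhip and Pth1r, dpMSCs for Smo, mpMSCs for Gli1 and Gli2, osteoblasts for Gli3, fibroblasts for Pthlh). Raw molecules, a stricter cell filter (at least 1000 genes and under 10% mitochondrial UMIs) and leaving out the cell with most UMIs of the gene in each library, which was added after the data were seen, kept all 9 within their intervals. A TMM factor gave -0.13 for Ihh and -0.16 for Pth1r. Equal weights of the 5 stages gave -0.094 for Ihh, -0.057 for Ptch1, 0.18 for Hhip and -0.13 for Pth1r. In Xist cells the ratios were -0.25 (Ihh), -0.089 (Ptch1), 0.12 (Hhip), -0.23 (Pth1r) and -0.065 (Pthlh). In Y cells they were -0.080, 0.18, 0.70, -0.14 and 1.62, with -0.24 for Gli3. In cells with at least 4000 UMIs Gli1 was at 0.94 and Gli2 at 1.21. A stricter gate put these 2 genes at 0.62 and 0.10. In Xist cells Gli1 in septoclast-gated cells turned to 0.53 and Ptch1 in fibroblasts to -0.83. A stricter gate moved Ihh in upper cells to -1.498. The cause of these moves was not tested.

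For the log2 ratio of hypertrophic over upper level, a stricter gate gave -6.09 for Hhip and 2.30 for Pth1r. The highest over the lowest Col10a1 bin gave 2.53 for Ihh, -0.33 for Smo, -4.80 for Gli1, -4.51 for Hhip, 1.146 for Pth1r and -3.43 for Pthlh. Requiring 50 UMIs in place of 20 lowered the higher calls among the 9 genes from 3 to 1 in dpMSCs, from 1 to 0 in mpMSCs and from 4 to 3 in fibroblasts. The genes tested fell from 9 to 7, from 7 to 6 and from 8 to 7. Hedgehog genes past the fold became 1 higher and 1 lower of 31 in chondrocytes. Those higher became 1 of 27 in osteoblasts, 1 of 21 in mpMSCs, 5 of 26 in dpMSCs and 1 of 21 in fibroblasts. Parathyroid hormone-related genes that were higher became 0 of 35 in chondrocytes, 2 of 27 in mpMSCs and 3 of 28 in fibroblasts. The share of all genes past the fold was not computed at this cut, so these counts have no background. Thinning to 2000 UMIs raised all 18 shares compared. No paired analysis was possible because each group has 1 library, and for the same reason no replicate could be left out. Hhip in mpMSCs, and Ihh, Gli1, Hhip and Pthlh in dpMSCs, rest on few UMIs, which limits those ratios. Ihh and Pthlh in mpMSCs had under 20 UMIs and no ratio.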
